A study of Mus musculus with 4 samples.

Results

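The 35 mouse genes here belong to the unfolded protein response, to folding and degradation in the endoplasmic reticulum (ER), or to the heat shock chaperones. They were chosen by symbol, with earlier results of these data known. All 35 were found in both deposited tables, which hold 25522 genes without tetracycline and 26085 with it. Total RNA was sequenced from small-intestinal crypts of male C57BL/6J mice at 9 weeks of age, in 4 labelled groups of 1 sample each: fed, fasted for 24 h, fed after tetracycline for 21 days, and fasted for 24 h after tetracycline for 21 days. The series asks how a depletion brought about by tetracycline, of what its text abbreviates as AKK, bears on expression in fed and fasted mice. Crypts were shaken off in an EDTA buffer and trypsinised to single cells, and no genotype, transgene or pooling of mice is given in the labels.

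Each deposited table compares fasted with fed mice, 1 table without tetracycline and 1 with it, and lists a mean normalized count, a log2 fold change, its standard error (SE) and p-values per gene. The numbers in each table could be resolved into whole counts of 4 libraries, 2 fasted and 2 fed, whose recovered counts summed to between 48195144 and 67588971 each. Of each side, the library with the larger size factor is called library 1, a name only; libraries could not be tied to labelled samples, and whether they came from separate mice is not stated. A positive log2 change is taken to mean higher in fasted mice because the tables are named with fasting first, and every direction below rests on that reading. Under it the authors' deposited tables put Pdk4, a kinase that restrains glucose oxidation and is known to be induced by fasting, at a log2 change of 2.27 (SE 0.38) without tetracycline and 2.90 (SE 0.62) with it. All 8 epithelial marker genes listed, Epcam and Cdh1 among them, were detected in each of the 8 libraries. In such bulk samples, fewer cells of a type and less RNA per cell cannot be told apart.

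Proteins bound for secretion or for membranes fold inside the ER. There Hspa5 (BiP) and Hsp90b1 (Grp94) hold unfolded chains, calnexin and calreticulin hold glycoproteins, and the protein disulfide isomerases form disulfide bonds. Unfolded protein releases 3 kinds of sensor, Ern1 and Ern2 (IRE1), Atf6 and Eif2ak3 (PERK), which raise the chaperones through the factors Xbp1 and Atf6 and slow translation. Chains that cannot fold are drawn out and degraded through the Sel1l and Syvn1 complex with Herpud1 and the derlins. In the cytosol and nucleus the factor Hsf1 does the corresponding work, raising Hspa1a, Hspa1b, Hsph1, Dnajb1 and Hsp90aa1 on heat or protein damage, while Hspa8 and Hsp90ab1 are made at all times. Crypts hold Paneth and goblet cells, both heavily secretory, and Xbp1 is needed for Paneth cells to persist.

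The control elements that define both responses are short, and promoter windows show which of these genes carry them at their starts. RefSeq windows on build GRCm38.p6 (250 bases before to 50 after each gene's start) were matched for 27 of the 35 genes; Atf6, Ern2, Hsf1, Hsp90aa1, Hsp90ab1, Hspa8, Hyou1 and Manf had none in the table used. Searched on both strands, the ER stress element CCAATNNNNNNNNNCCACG stood in the windows of 9 of the 27 (33.3%), namely Hspa5, Hsp90b1, Dnajc3, Pdia6, Calr, Canx, Syvn1, Creld2 and Derl3, against 37 of all 27025 genes with a window (0.137%). Its second form, ATTGGNCCACG, stood in Dnajb11 and Herpud1 (2 of 27, against 0.0444% of all genes). The UPR element TGACGTGG was in none of the 27 and in 0.714% of all genes, and 0 of 27 says only that these letters are not in these windows. The heat shock element, GAANNTTCNNGAA or TTCNNGAANNTTC, stood in Hsph1, Hspe1 and Hspd1 (11.1%, against 0.662% of all genes). The Hsph1 and Dnajb11 matches lie after the start. Hspa1a, Hspa1b and Dnajb1 had windows without the exact letters of the heat shock element, which does not show that they lack one. A match is a description of the letters, not of a bound site. The sequences below are shown for the genes the results return to: Hspa5 for the ER chaperones, Syvn1 and Herpud1 for degradation, Hsp90b1 because it carries the element in both orientations, and Hspe1 for the heat shock side. Capitals mark the bases the motif fixes, and each line is read 5′ to 3′ on the gene's own strand.
Hspa5: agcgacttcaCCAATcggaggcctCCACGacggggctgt
Hsp90b1, distal: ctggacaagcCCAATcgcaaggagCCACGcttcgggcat
Hsp90b1, proximal: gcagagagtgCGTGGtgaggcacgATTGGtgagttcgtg
Syvn1: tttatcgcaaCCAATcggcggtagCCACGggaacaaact
Herpud1: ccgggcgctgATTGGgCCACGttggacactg
Hspe1: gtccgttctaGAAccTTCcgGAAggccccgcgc
The Hspa5 stretch lies at chr2:34772015-34772053 on the plus strand, and its element begins 65 bases before the start. The Hsp90b1 stretches lie at chr10:86705628-86705666 and chr10:86705523-86705561 on the minus strand, 212 and 107 bases before the start; the proximal one is the reverse complement of the motif. The Syvn1 stretch is at chr19:6046522-6046560 and the Herpud1 stretch at chr8:94386367-94386397, both on the plus strand, with the elements 44 and 52 bases before their starts. The Hspe1 stretch, at chr1:55088054-55088086 on the plus strand, is shared with Hspd1, its head-to-head neighbour on the minus strand, and a second match in the other phase overlaps it.

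Few of these genes passed the threshold used here. At an adjusted p under 0.05 in the authors' deposited DESeq2 tables, 0 of the 35 were called without tetracycline, where 2.27% of all 18100 genes with an adjusted p were. With tetracycline 1 of 35 was called, the inducible Hsp70 gene Hspa1a, lower in fasted mice, against 0.6% of 17993 genes. At an unadjusted p under 0.05 there were 4 of 35 in each table, against 10.8% of all genes without tetracycline and 5.34% with it. Without tetracycline these were Herpud1, higher, and Sdf2l1, Hsp90aa1 and Hsph1, lower; with it they were Herpud1, higher, and Hspa1a, Hspa1b and Hsph1, lower. Hsp90aa1 and Hsph1 are named after their values were seen. Both fasted libraries lay above both fed ones for 6 of 35 genes without tetracycline and 7 of 35 with it, where 19.9% and 15.8% of all genes with a mean of 50 or more did. Both lay below for 10 of 35 and 5 of 35, where 24.6% and 14.9% of all genes did. These shares are near the background.

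**Figure D1:**
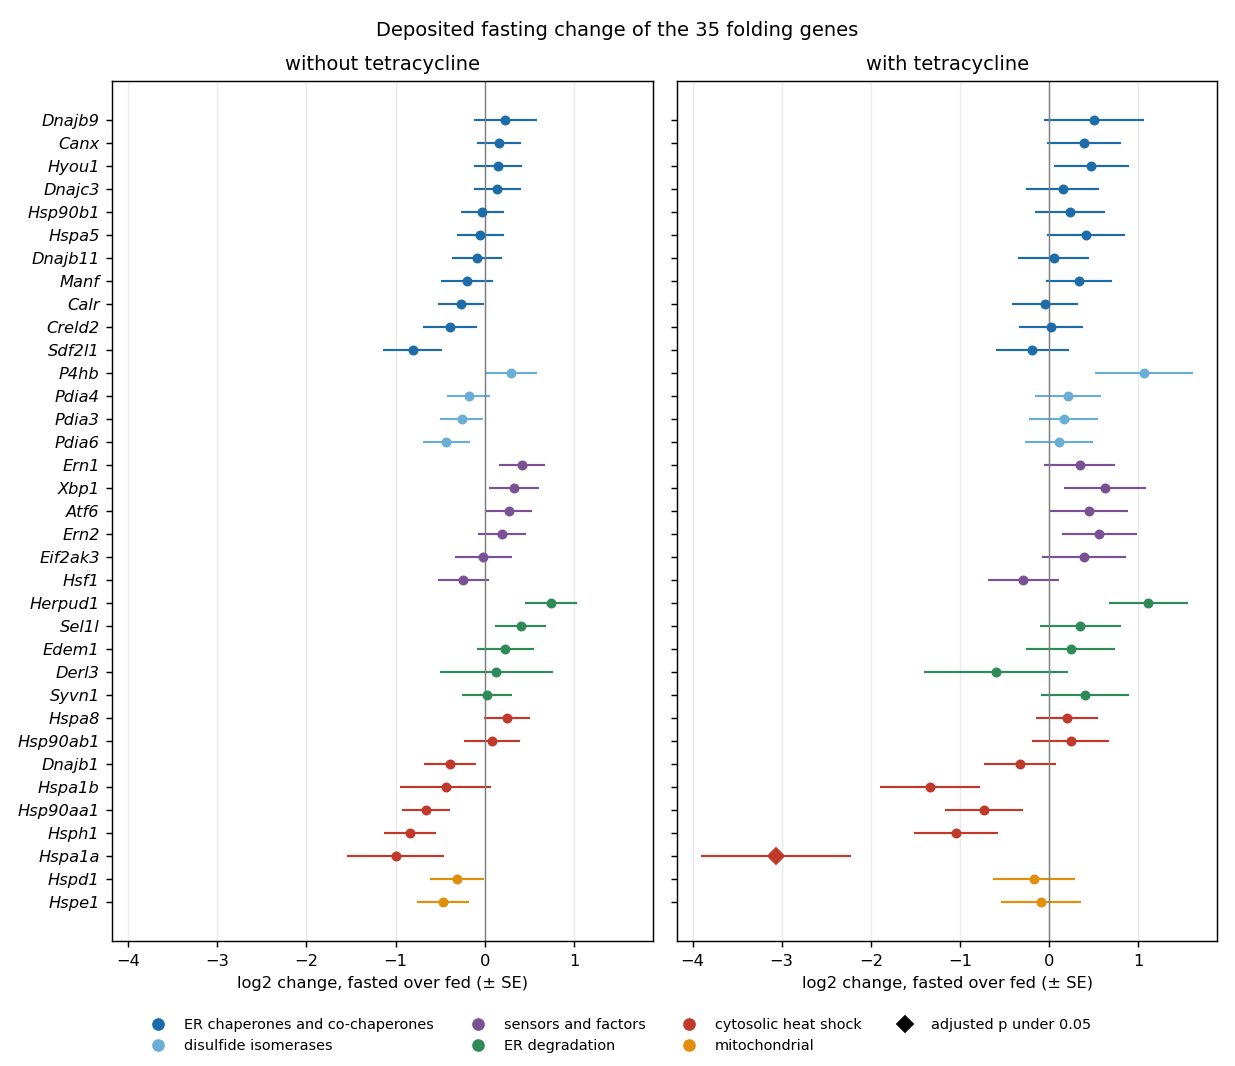
Log2 change of each of the 35 genes, fasted over fed, with its standard error as the bar, from the deposited tables without (left) and with tetracycline (right), coloured by role. The heat shock genes Hspa1a, Hsph1 and Hsp90aa1 are among the lowest in both panels, Hspa1a at -3.06 with tetracycline as the 1 diamond (adjusted p under 0.05), and Herpud1 sits highest in both panels at 0.74 and 1.11.

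Of the inducible cytosolic chaperones, Hspa1a, Hsph1 and Hsp90aa1 were among the lowest values in both tables, as was Sdf2l1 of the ER without tetracycline. Hspa1a, an Hsp70 that is scarce until cells are stressed, had normalized counts of 37.6 and 36.6 in the fasted libraries and 65.5 and 82.4 in the fed ones without tetracycline. With tetracycline it had 14 and 5.5 in the fasted and 113 and 53.9 in the fed libraries, from raw counts of 17 and 4 against 144 and 50. The fasted libraries lay below the fed ones in both tables, and the pair with tetracycline was the lowest of all. The log2 change in the authors' deposited tables was -1.0 (SE 0.54, adjusted p = 0.512) without tetracycline and -3.06 (SE 0.84, adjusted p = 0.0447) with it, the latter 8.34-fold lower in fasted mice. As a ratio of means it ran from 5.53-fold lower without fed library 1 to 15.2-fold lower without fasted library 1. This 1 call rests on a mean of 46.7 counts, and when the adjustment ran over all 26085 genes of the table the adjusted p was 0.0648.

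Hspa1b, the near-identical copy of Hspa1a, read 312 and 91.4 fasted against 317 and 233 fed without tetracycline. With tetracycline it read 94.6 and 106 fasted against 341 and 165 fed, so the sides overlapped in the first table and not in the second. Its deposited log2 change was -0.44 (SE 0.51) and -1.34 (SE 0.56, adjusted p = 0.652 by the authors' DESeq2). The first of these turned to 0.18 without fasted library 2 and fell to -1.59 without fasted library 1. Leaving out fed library 1 moved the second to -0.72. The genes lie close together, at chr17:34969359-34972156 and chr17:34956429-34959238 (GRCm38.p6), and their coding sequences are 99.5% identical in the GENCODE transcripts, so the split of reads between them is uncertain. Summed, the pair stood at 349 and 128 fasted against 382 and 315 fed without tetracycline, and at 109 and 111 against 454 and 219 with it. That is a log2 ratio of -0.55 and of -1.61, the latter 3.06-fold lower in fasted mice with no overlap between the sides. The first ratio was 0.00 without fasted library 2 and -1.45 without fasted library 1, and the second was 1.99-fold lower without fed library 1.

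Hsph1, the large Hsp110 that helps Hsp70 exchange its nucleotide, gave the smallest p of the 35 without tetracycline. It read 1701 and 2565 in the fasted and 3861 and 3788 in the fed libraries, a deposited log2 change of -0.84 (SE 0.29, p = 0.004, adjusted p = 0.115, the authors' DESeq2). With tetracycline it read 2707 and 1373 against 4126 and 4344, a change of -1.05 (SE 0.47, adjusted p = 0.783, the authors' DESeq2). Fasted libraries lay below fed libraries each time, while neither change passed the threshold. Without fasted library 2 the value with tetracycline was -0.65, and without fasted library 1 it was -1.63.

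The inducible Hsp90, Hsp90aa1, ran the same way: 12857 and 16122 fasted against 25494 and 20143 fed without tetracycline. With tetracycline it stood at 16782 and 10475 against 19289 and 25877. The deposited log2 changes were -0.66 (SE 0.27) and -0.73 (SE 0.44), for which the authors' DESeq2 gave adjusted p-values of 0.265 and 1.0. The second was -0.43 without fasted library 2 and -1.11 without fasted library 1. The constitutive counterpart Hsp90ab1 had 0.08 (SE 0.31) and 0.24 (SE 0.43), and the constitutive Hsp70 Hspa8 had 0.25 (SE 0.26) and 0.20 (SE 0.35), none of the 4 past the threshold. Dnajb1, the Hsp40 partner of Hsp70, had -0.39 (SE 0.29) and -0.33 (SE 0.40). In the cytosolic group of 7, 5 values were below 0 in each table; both fasted libraries were below both fed ones for 4 of 7 each time, where 24.6% and 14.9% of all genes were, and 1 of 7 was called with tetracycline, where 0.6% of genes were. Without each library in turn, 5 or 6 of the 7 were below 0 in either table. Hsf1, whose protein is held inactive by chaperones until stress, read 989 and 1372 fasted against 1465 and 1327 fed without tetracycline. It read 1411 and 999 against 1436 and 1505 with tetracycline, for changes of -0.24 (SE 0.29) and -0.29 (SE 0.40).

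**Figure D2:**
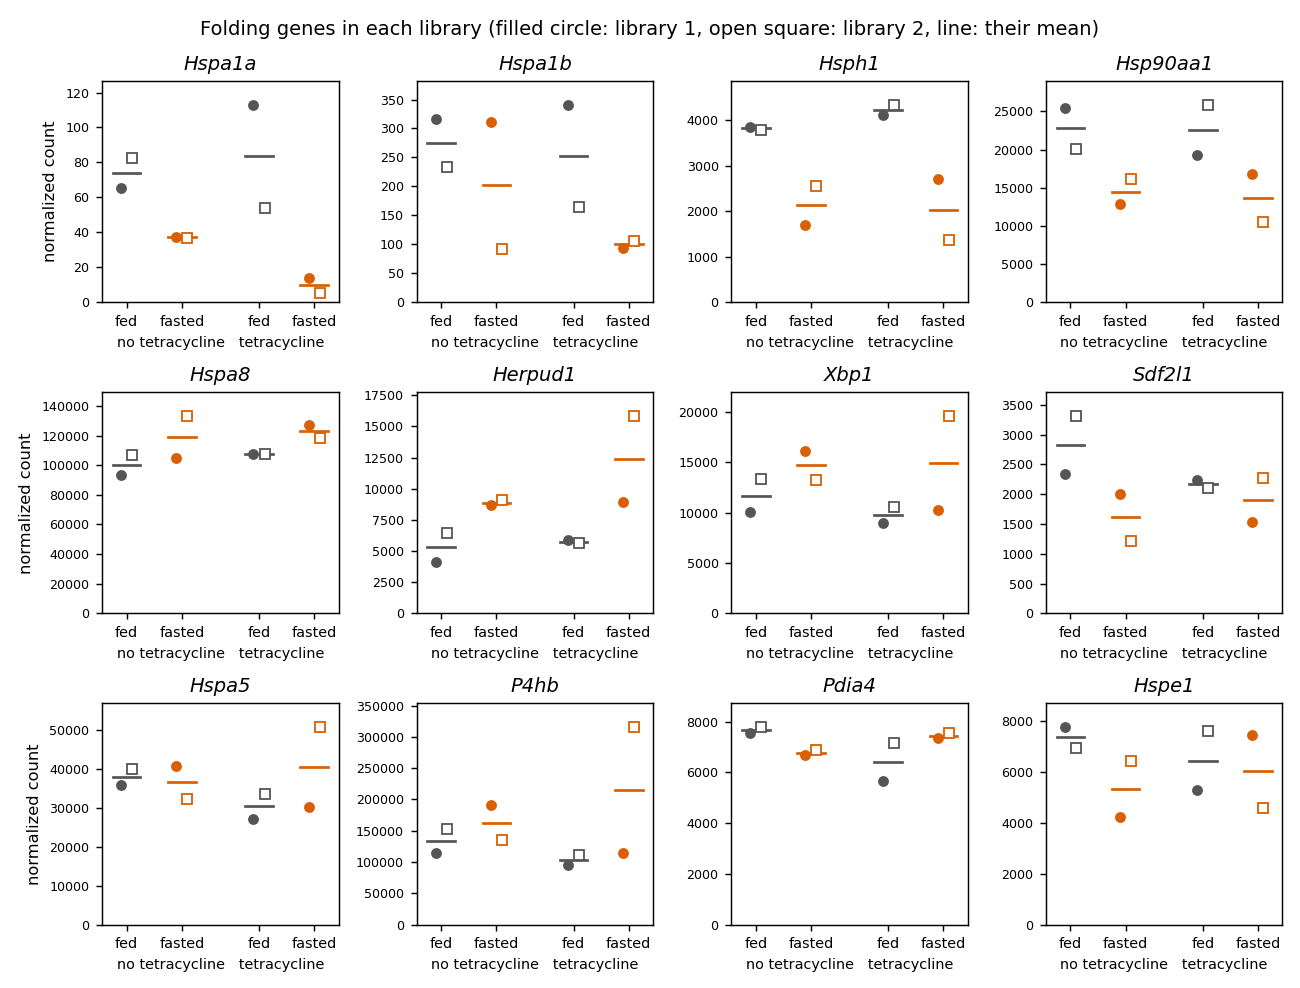
Normalized counts of 12 genes in each library (filled circle library 1, open square library 2, line the mean of both), fed in grey and fasted in orange, on linear axes from 0. Hspa1a, Hsph1 and Hsp90aa1 show both fasted points under both fed points in either table, and Herpud1 shows the opposite. With tetracycline, Hspa5, P4hb and Xbp1 owe most or all of their higher fasted mean to library 2.

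Herpud1, a membrane protein that brings substrates to the ER ubiquitin ligase and carries the second form of the ER stress element in the stretch printed above, had the highest value of the 35 in both tables. Without tetracycline it read 8713 and 9061 in the fasted and 4145 and 6461 in the fed libraries. With tetracycline it read 8919 and 15838 against 5859 and 5649.6, so that every fasted library was above every fed one of its table. The authors' deposited tables give 0.74 (SE 0.29, adjusted p = 0.222) and 1.11 (SE 0.44, adjusted p = 0.583), neither past the threshold. The first was 0.46 without fed library 1 and the second 0.63 without fasted library 2.

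None of the other degradation genes had an unadjusted p under 0.05 in either table. Sel1l, the adaptor of the ligase, had 0.40 (SE 0.29) and 0.35 (SE 0.45), and Syvn1, the ligase itself, 0.02 (SE 0.28) and 0.40 (SE 0.49). Edem1, which feeds misfolded glycoproteins to the pathway, had 0.23 (SE 0.32) and 0.24 (SE 0.50). Derl3, a derlin with a mean of only 36.6 and 35.4 normalized counts, had 0.13 (SE 0.63) and -0.60 (SE 0.81). The second Derl3 value was -1.38 without fasted library 1 and -0.12 without fasted library 2. Values of 5 of 5 degradation genes lay above 0 without tetracycline and 4 of 5 with it, where 9147 of 18100 and 8677 of 17993 genes did, and 0 of 5 were called by the authors' DESeq2 in either table. Without fasted library 2, 1 of 5 (Herpud1) was above 0 with tetracycline. Without fasted library 1, 3 of 5 were above 0 without tetracycline.

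Among the sensors and factors, no gene passed the threshold in either of the authors' tables, and 0 of 6 had an unadjusted p under 0.05. Xbp1, the factor that IRE1 activates by splicing, read 16158 and 13228 fasted against 10033 and 13289.6 fed without tetracycline, and 10261 and 19599.8 against 8936 and 10514 with it. The sides overlapped in both tables, and the changes were 0.33 (SE 0.28) and 0.62 (SE 0.46), the second 0.08 without fasted library 2; gene-level values do not separate its spliced form. Ern1, the IRE1 of all cells, read 2803 and 2334 fasted against 1965 and 1864 fed, then 2376 and 2482 against 1573 and 2275 with tetracycline. Ern2, the IRE1 of mucus-secreting epithelium, read 1154 and 1070.1 against 1013 and 939, then 1410.3 and 1043 against 719.8 and 945.

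Both IRE1 genes had fasted libraries above fed ones in both tables, by 0.42 (SE 0.26) and 0.34 (SE 0.40) for Ern1 and 0.19 (SE 0.27) and 0.56 (SE 0.42) for Ern2. Atf6, whose cut fragment is a transcription factor, read 3956 and 3202 fasted against 3109 and 2845 fed without tetracycline and 2817 and 4583 against 2334 and 3134 with it. Its changes were 0.27 (SE 0.26) and 0.44 (SE 0.44), the sides apart in the first table only. Eif2ak3, the PERK kinase, read 2116 and 1230.3 against 1643 and 1748, then 1371 and 2609.9 against 1612 and 1423. Its fasted libraries lay on either side of both fed ones in each table, for changes of -0.02 (SE 0.32) and 0.39 (SE 0.47). The values with tetracycline, without fasted library 2, were 0.04 for Atf6 and -0.15 for Eif2ak3, and the median of the 6 sensors and factors, Hsf1 included, was 0.06 in place of 0.41.

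The chaperones inside the ER showed no shared fasting change without tetracycline. Of the 11 chaperones and co-chaperones 4 had values above 0 and 7 below, with a median log2 change of -0.05, and 0 of 11 were called by the authors' DESeq2 (1 of 11 at an unadjusted p under 0.05). With tetracycline 9 were above 0 and 2 below, with a median of 0.23, and again 0 of 11 were called (0 of 11 unadjusted). Both counts depend on single libraries: without fasted library 2, 5 of 11 were above 0 with tetracycline and the median was -0.01. Without fasted library 1, 1 of 11 (Canx) was above 0 without tetracycline, with a median of -0.31, and without fed library 2, 7 of 11 were. Over all genes with a mean of 50 or more the medians were -0.020 and -0.012. Hspa5 read 40678 and 32365 fasted against 35852 and 39856 fed without tetracycline, and 30229.5 and 50757 against 27244 and 33571 with it, overlapping both times. Its changes were -0.05 (SE 0.26) and 0.41 (SE 0.44), and the second was -0.01 without fasted library 2.

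Sdf2l1, a partner of the ER Hsp40 proteins that responds strongly to ER stress, was the exception without tetracycline: 1999.7 and 1221 fasted against 2341 and 3314 fed. That is a change of -0.81 (SE 0.33, adjusted p = 0.249, the authors' DESeq2), which was -0.50 without fasted library 2 and -0.54 without fed library 2. With tetracycline it read 1531 and 2271 against 2234 and 2112, overlapping, for -0.19 (SE 0.41). Dnajb9, an Hsp40 that recruits Hspa5 to IRE1, had the highest value of the group in both tables, 0.23 (SE 0.35) and 0.50 (SE 0.56). Its libraries read 2955 and 1546 fasted against 1691 and 2153 fed, then 1392 and 3889 against 1797 and 1947, and its sign turned to -0.31 without fasted library 1 in the first table and -0.43 without fasted library 2 in the second. The rest (Hsp90b1, Hyou1, Dnajb11, Dnajc3, Calr, Canx, Creld2 and Manf) lay between -0.39 for Creld2 and 0.16 for Canx without tetracycline, and between -0.05 for Calr and 0.47 for Hyou1 with it.

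Of the 4 disulfide isomerases, P4hb had the highest values and stood apart from the others. P4hb, also the beta subunit of prolyl hydroxylase and of the triglyceride transfer protein that loads lipoproteins, read 191183 and 135095 fasted against 114292 and 153301 fed without tetracycline. With tetracycline it read 114599 and 315868 against 94789 and 111756, above the fed side only narrowly in fasted library 1. The deposited changes were 0.29 (SE 0.29, adjusted p = 0.847) and 1.06 (SE 0.55, adjusted p = 0.961), the second falling to 0.15 without fasted library 2. Pdia3, Pdia4 and Pdia6 had values below 0 without tetracycline, at -0.26 (SE 0.24), -0.18 (SE 0.24) and -0.43 (SE 0.26), and both fasted libraries of each lay below both fed ones (3 of 4, where 24.6% of all genes did). With tetracycline the same genes were at 0.16 (SE 0.39), 0.21 (SE 0.37) and 0.11 (SE 0.38), and none passed the threshold in either table. Without fed library 1 the values of Pdia3 and Pdia6 with tetracycline were below 0. Pdia6 itself read 7538 and 9247 fasted against 11549.6 and 11138 fed without tetracycline, and 9950.3 and 9204 against 7488 and 10240 with it.

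In mitochondria Hspd1 (Hsp60) and its lid Hspe1 (Hsp10) form 1 folding chamber, and their genes share the promoter stretch given above. Hspe1 read 4210.4 and 6401 fasted against 7747 and 6938 fed without tetracycline, a change of -0.47 (SE 0.29), and 7442 and 4591 against 5274 and 7577 with it, a change of -0.09 (SE 0.45). Hspd1 read 18823 and 27692 against 33493 and 24044, then 29577 and 20505 against 20930.4 and 35345, for -0.31 (SE 0.30) and -0.17 (SE 0.46). With tetracycline both values turned above 0 without fasted library 2 or without fed library 2. In all 4 pairs of libraries the 2 genes were higher in the same library.

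The 9 genes with the ER stress element had a median log2 change of -0.03 without tetracycline (4 above 0, 5 below) and 0.15 with it (7 above, 2 below). The latter was -0.01 without fasted library 2 (4 above, 5 below), and the former -0.23 without fasted library 1 (2 above, 7 below). The 3 genes with the heat shock element were Hsph1, after its start, and Hspe1 and Hspd1, in a shared stretch. They were below 0 in both tables, with medians of -0.47 and -0.17, apart from the turn of Hspe1 and Hspd1 just given. Both are descriptions of small groups with no test.

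**Figure D3:**
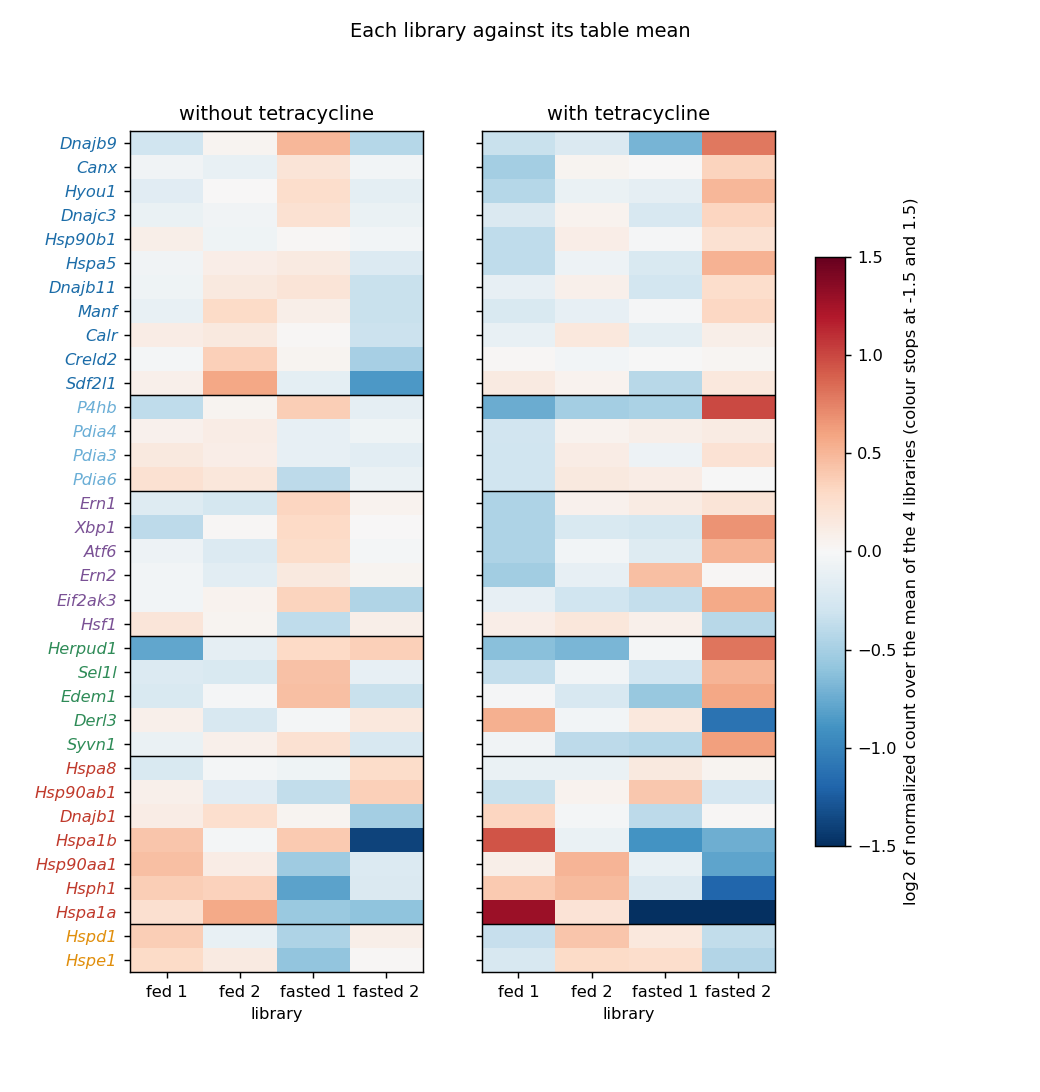
Log2 of the normalized count of each gene in each library over its mean in the 4 libraries of its table, red above and blue below, with lines between role groups. The ER chaperones are redder in fasted library 1 without tetracycline and in fasted library 2 with it, and the mitochondrial pair at the foot runs the other way.

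The ER chaperones differed between the fasted libraries of each table. Without tetracycline all 11 ER chaperones were higher in fasted library 1 than in fasted library 2, with a median log2 ratio of 0.41, where 61.1% of the 7594 most abundant genes compared (mean 1000 or more) were higher there (median 0.11). With tetracycline all 11 were higher in fasted library 2, with a median ratio of library 1 over library 2 of -0.54, where 69.4% of such genes were (median -0.29). Dnajb9 showed the widest gap of the group both times, at 0.93 and -1.48. P4hb stood at 0.50 and -1.46 and Xbp1 at 0.29 and -0.93, while Hspe1 ran opposite at -0.60 and 0.70 and Hspd1 at -0.56 and 0.53. Not every ER gene shared the gap: without tetracycline the ratio was 0.04 for Pdia3, -0.05 for Pdia4, -0.29 for Pdia6 and -0.06 for Herpud1, each smaller in size than that gene's fasting change. Between the fed libraries the median ratios of the 11 were -0.18 and -0.27.

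Markers of several cell types moved with these libraries. The general epithelial markers ran as the ER chaperones did: 6 of 8 were higher in fasted library 1 without tetracycline (678724 against 474269, median log2 ratio 0.28) and 7 of 8 in fasted library 2 with it (423628 against 670962, median -0.41). Their fed sums were 601284 and 772028, then 572761 and 552204. Enterocyte markers (6 of 8 could be resolved in both tables) were all 6 higher in fasted library 1 without tetracycline, summing to 1058219.6 against 574338 normalized counts, and all 6 higher in fasted library 2 with it, at 372659.6 against 1114998. Paneth markers ran the other way between the fasted libraries, higher in fasted library 2 without tetracycline for 7 of 8 (653331 against 828633) and in fasted library 1 with it for 8 of 8 (1435175 against 272459). Goblet markers were divided: 5 of 8 were higher in fasted library 1 without tetracycline (748662 against 546022) and 5 of 8 in fasted library 2 with it (435251 against 698879, median log2 ratio -0.08). Fed libraries summed to 465991 and 738444 for enterocyte, 409871 and 336866 for Paneth and 614207 and 783056 for goblet markers without tetracycline. With it they summed to 574869.5 and 552794, 322866 and 463020.2, and 367209.9 and 532819. Stem cell markers were higher in fasted library 1 with tetracycline for 6 of 6 (94394 against 25106, median log2 ratio 1.71) and in fasted library 2 without it for 4 of 6 (58835 against 75039), with fed sums of 104425 and 67467 without tetracycline and 51029 and 105326 with it. Between fasted and fed, Paneth markers had values above 0 for 8 of 8 in both tables, with medians of 1.22 and 1.15, and the authors' DESeq2 called 6 of 8 higher without tetracycline and 0 with it. Over all genes with an adjusted p, 2.27% and 0.6% were called, at median standard errors of 0.34 and 0.49. Enterocyte markers had values above 0 for 6 of 8 in both tables, with medians of 0.61 and 0.90, and 1 was called higher without tetracycline and 0 with it. Goblet markers, Agr2 among them, had values below 0 for 6 of 8 without tetracycline (median -0.27, 1 called lower) and above 0 for 6 of 8 with it (median 0.29, 0 called). Stem cell markers had values above 0 for 4 of 6 in both tables, with medians of 0.15 and 0.17 and 0 called. The part of these cell types in the chaperone values was not tested.

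The counts called in what follows stand against 2.27% of all genes without tetracycline and 0.6% with it. Markers of plasma cells, which carry a large ER, had values below 0 for 8 of 8 without tetracycline (4 called lower by the authors' DESeq2) and 7 of 8 with it (0 called). Their sums were 6701 and 10808 fasted against 14254 and 21840.2 fed, then 11779 and 5505 against 18154 and 9584, with 1 of 8 genes at 0 in every fasted library and in fed library 1 with tetracycline. Lymphocyte markers had values below 0 for 7 of 7 in both tables, 3 of them called without tetracycline and 0 with it; the 4 resolved in both tables summed to 4569 and 8839 fasted against 9915 and 12394 fed, then 14532 and 2585 against 42256 and 11444. Red cell markers had values below 0 for 4 of 4 in both tables (4 called lower without tetracycline, 0 with it), summing to 24428 and 34797 fasted against 87003 and 293089.9 fed, then to 72826 and 11663 against 127568 and 87095. Stromal markers had values below 0 for 6 of 6 without tetracycline (3 called lower) and 4 of 6 with it (0 called), with sums of 762 and 1458 fasted against 1563 and 2895 fed, then 2023 and 746 against 3692 and 1486. Myeloid markers had values below 0 for 5 of 6 (1 called lower) and 6 of 6 (0 called), and the 5 resolved in both tables summed to 663 and 719 against 1005 and 1287, then 894 and 382 against 1932 and 1244. Markers of pancreatic acinar cells, which also carry a large ER, had values below 0 for 9 of 9 without tetracycline and 7 of 9 with it (0 called in either), with medians of -1.68 and -0.60. They summed to 554 and 700.1 fasted against 512 and 1753 fed, then to 826 and 638 against 1109 and 1090.4. The Hspa1a change with tetracycline stands beside these differences, and the part of these cells in it was not tested.

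Whether tetracycline altered the fasting change was tested per gene as the difference of both deposited DESeq2 changes over their combined error, adjusted over 17571 genes. By this Wald test 0 of 35 genes passed an adjusted p of 0.05, where 0.0228% of all genes did (4 genes). At an unadjusted p under 0.05 there was 1 of 35, against 1.05% of all genes: Hspa1a, whose change with tetracycline minus that without was -2.07 (SE 0.99, adjusted p = 1.0, from the DESeq2 estimates). The call of Hspa1a in 1 table only is therefore not shown to be a difference between the tables. The test statistic had a robust standard deviation (SD) of 0.71. That is narrower than the normal curve its p-values assume, so they run large. Divided by that SD, the statistic still called 0 of 35 at an adjusted p under 0.05. The difference was above 0 for 26 of 35 genes with a median of 0.24, led by P4hb at 0.77 (SE 0.63), where 8790 of 17571 genes were above 0 with a median of 0.00. Without fasted library 2 of the table with tetracycline, 17 of 35 were above 0 and 17 below, 1 being 0 to 2 decimals, and the members' median was 0.00.

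**Figure D4:**
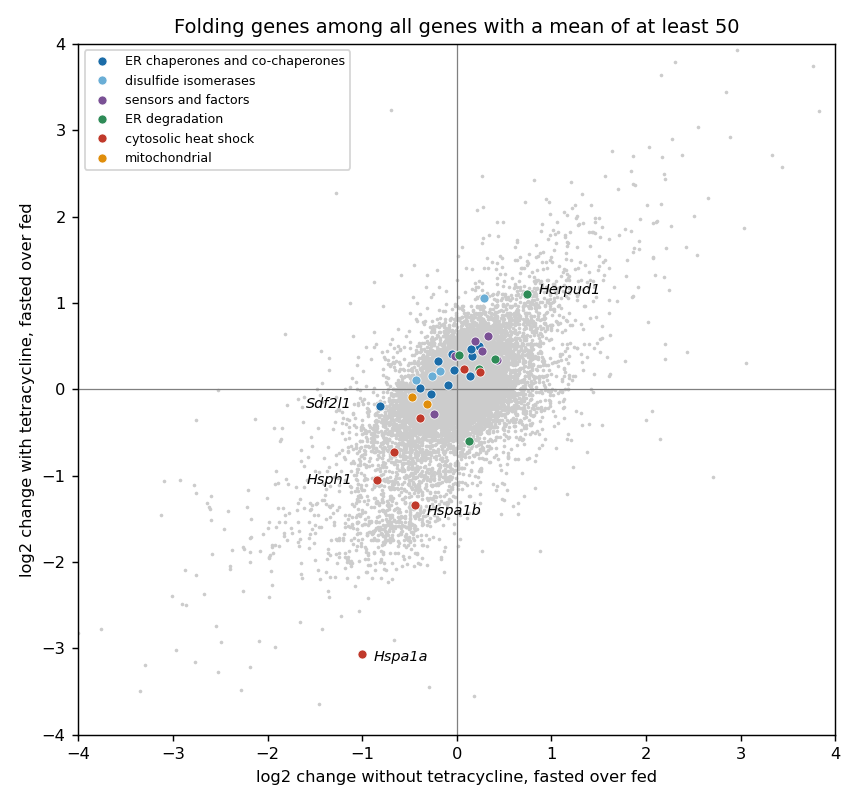
Log2 change without tetracycline (x axis) against that with it (y axis) for the 35 genes, coloured by role, over 13194 genes averaging 50 or more in both tables (grey); 22 grey genes lie beyond the axes, which stop at 4. The members lie within the cloud, with Hspa1a, whose own mean with tetracycline is 46.7, at -1.0 and -3.06 and Herpud1 at 0.74 and 1.11.

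Levels with and without tetracycline were set side by side across the separately scaled tables, centred on the median of 21925 shared genes and without a test. In fed mice 29 of 35 genes were lower with tetracycline, with a median log2 ratio of -0.18; the range ran from -0.56 for Manf, a secreted ER stress factor, to 0.22 for Derl3. Of the 7610 genes with a mean of 1000 or more, 63.9% were lower, with a median of -0.08. In fasted mice 15 were higher and 20 lower, with a median of -0.03 that was 0.03 on the deposited scaling. There Hspa1a at -1.86 and Hspa1b at -1.07 were lowest and Herpud1 at 0.41 highest.

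Other genes of the same pathways were counted from 5 lists, whose names are broad. The ER folding list also holds the cytosolic Bag6 and Dnajb2. The list of cytosolic and mitochondrial chaperones also holds Serpinh1 of the ER and the regulators Hsf2, Hsf4 and Hsbp1. Of 26 further ER folding genes 1 was called, lower without tetracycline, where 2.27% of all genes were called: Agr2, the isomerase needed for mucin folding, with 10918 and 13825 fasted against 25188 and 31788 fed and a deposited log2 change of -1.20 (SE 0.27, adjusted p = 0.00121, the authors' DESeq2). With tetracycline Agr2 had -0.33 (SE 0.43) and the sides overlapped. The Hsp70-like Hspa13 had the highest value among these genes in both tables, at 0.47 (SE 0.30) and 0.68 (SE 0.54), the second -0.09 without fasted library 2. Of 18 further degradation genes 0 were called by the authors' DESeq2 in either table (0 of 18 at an unadjusted p under 0.05); Rnf5, a ubiquitin ligase, was lowest in both at -0.43 (SE 0.26) and -0.30 (SE 0.38), and Selenos was highest with tetracycline at 0.81 (SE 0.45), a value that was 0.33 without fasted library 2.

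Of 19 genes of the stress arms 2 were called without tetracycline, against a background of 2.27%, and 1 with it, against 0.6%. Atf3, a stress-induced repressor, was lower in fasted mice in both of the authors' tables, by -2.67 (SE 0.45, adjusted p = 9.64e-07) and -2.37 (SE 0.49, adjusted p = 0.000506, DESeq2). It read 579 and 213 fasted against 1751 and 3282 fed, then 159.6 and 278 against 1335 and 916, and the first fold ran from 4.35 to 11.8 without single libraries (fasted library 2 and fasted library 1). Chac1, a glutathione-degrading target of the PERK and amino acid response arm, was higher without tetracycline by 3.66 (SE 0.53, adjusted p = 4.13e-09, the authors' DESeq2), at 242 and 137 against 14.9 and 15.1. With tetracycline it read 29.6 and 4.13 fasted, from raw counts of 36 and 3, against 34.6 and 41.0 fed, a change of -1.13 (SE 1.04) that was -0.35 without fasted library 2 and -3.20 without fasted library 1. The difference between the tables had an adjusted p of 0.103 (unadjusted p = 4.10e-05) by the Wald test on the DESeq2 estimates. The p-values of that test run large here, as given above.

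Of 24 translocation and glycosylation genes, which pass chains into the ER and add their sugars, 0 were called by the authors' DESeq2 in either table (1 and 0 of 24 unadjusted). With tetracycline 23 of 24 values lay above 0 with a median of 0.42, and both fasted libraries lay above both fed ones for 17 of 24 (70.8%, background 15.8%). Without fasted library 2 the count above 0 was 21 of 24 and without fed library 1 it was 22 of 24, each with a median of 0.24. Without tetracycline 11 lay above 0 with a median of -0.01, and both fasted libraries lay above both fed ones for 6 of 24 (25%, background 19.9%) and below them for 8 of 24 (33.3%, background 24.6%). Sec61a1, the channel itself, was highest with tetracycline, at 17816 and 24977 against 11229 and 14500.3, a change of 0.73 (SE 0.40). All 24 were higher in fasted library 2 than in fasted library 1 with tetracycline.

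Of 45 further cytosolic and mitochondrial chaperones 1 was called in each table, where 2.27% and 0.6% of all genes were. With tetracycline 44 of the 45 had an adjusted p. The called gene was higher in both: Fkbp5, a co-chaperone of steroid receptors and a glucocorticoid target. It read 10559 and 15556 fasted against 2449 and 1714 fed, then 10926 and 29569 against 4804 and 3888, for changes of 2.65 (SE 0.31, adjusted p = 2.03e-14) and 2.22 (SE 0.55, adjusted p = 0.0147) in the authors' DESeq2 tables; the second was 1.33 without fasted library 2. The list, Fkbp5 included, leaned lower. Without tetracycline 38 of 45 values were below 0, with a median of -0.23. With tetracycline 30 of 45 were, with a median of -0.14. Without fasted library 2 or fed library 2 the second median was -0.08. Both fasted libraries were below both fed ones for 19 of 45 (42.2%) without tetracycline and 14 of 45 (31.1%) with it, against the 24.6% and 14.9% of all genes given above.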

How the data were processed

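Total RNA from crypts was made into libraries with a kit that does not mark strand, per the labels' protocols, so reads of overlapping or antisense genes cannot be told apart. The submitters' processing notes name Salmon, DESeq2 and build mm10, without versions. The authors' deposited tables give a mean normalized count per gene (a signal, over all libraries of the table), a log2 fold change and its standard error, a Wald statistic (a score) and p-values, raw and adjusted; these were used as deposited.

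From them, counts per library were recovered: the deposited mean, given to 15 digits, is a sum of whole counts over 4 times their size factors, and the set of counts was kept whose refit gave the deposited log2 fold change within 1e-10. Where the mean was under 100, a sole set matching it near the deposited change was kept without that refit. The recovery resolved 99.91% and 99.54% of genes and all 35 members. The recovery and the difference test were also run on simulated data. For the test, the noise was drawn from the deposited standard errors. That run therefore cannot show whether the p-values are right for these data. No test was run on the recovered counts.

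A call is a deposited adjusted p under 0.05. The difference between tables was tested by a two-sided Wald test with Benjamini-Hochberg adjustment; its errors are taken as independent. With 2 libraries a side and no stated origin, p-values measure the spread between these libraries. Levels across tables used a pseudocount of 1. Named genes were those called, the largest change per role group with a mean of at least 50, and the 6 sensors and factors, with additions marked. Members, lists and tests were chosen with earlier results of these data known. Coding identity was taken from GENCODE transcripts. Alternatives were the threshold, the genes adjusted over, centring, pseudocount, filters on the mean, and leaving out each library; leaving libraries out of the group and list counts, the summed pair and other pathway genes was added after seeing the data. Python 3.11.15, numpy 2.4.6, pandas 2.3.3 and scipy 1.17.1 were used.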

Additional observations from a re-analysis of the deposited data

Results flagged for a closer look

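Pdia4, a disulfide isomerase, was picked out because its libraries moved in opposite directions in the 2 tables. Without tetracycline both fasted libraries (6661 and 6891 normalized counts) lay below both fed ones (7564 and 7783), and with tetracycline both (7334 and 7534) lay above both fed ones (5649 and 7164). Of all genes with a mean of 50 or more, 24.6% lay below without tetracycline and 15.8% above with it. The share of genes that did both was not counted. Without fed library 1 the log2 change of Pdia4 with tetracycline was 0.05 in place of 0.21. The change with tetracycline exceeded that without it by 0.39 on the log2 scale (SE 0.44). The Wald test of that difference on the DESeq2 estimates gave an adjusted p of 1.0, so a difference between the tables is not shown.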

How the results depend on the processing

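The single call, Hspa1a with tetracycline, gave 0 of 35 called at an adjusted p under 0.01, 0 when adjusted over all 26085 genes, and 0 when adjusted over genes with a mean of at least 50, a set its mean of 46.7 keeps it out of. The count stayed at 0 without tetracycline and for the difference, and at 1 with tetracycline at an adjusted p under 0.1. Leaving out each library moved the members' median log2 change between -0.198 and 0.063 without tetracycline and between 0.005 and 0.304 with it, and changed the sign of 2 to 6 and of 3 to 10 of the 35 values. Hspa1a with tetracycline ranged from -3.93 to -2.47; its test was not refitted without a library. Median levels against no tetracycline ran from -0.18 to -0.12 in fed and from -0.04 to 0.03 in fasted mice over scalings. No paired analysis was possible because the libraries carry no numbers in the labels. With 2 libraries a side, standard errors of 0.24 to 0.84 limit what could be called.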
